A study of Mus musculus with 9 samples.

Results

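The genes described here are the mouse zinc finger protein genes named Zfp followed by a number. They were chosen by their symbol, their annotation as protein-coding and a mean level of at least 2 CPM (counts scaled to the library total) over the 9 libraries, which kept 265 of 365 protein-coding Zfp genes in a table of 54697 lines. Because the level itself was part of the choice, levels are given as a description. All 265 genes passed the low-count filter of the test. Just inside the limit lay Zfp992 with a mean of 2.11 CPM and Zfp58 with 2.12 CPM, and just outside it lay Zfp105 with 2.00 CPM and Zfp964 with 1.98 CPM.

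RNA-seq was done on C2C12 cells, an established mouse myoblast line that can be brought to fuse into muscle fibres, with a wild-type genotype per the labels. The groups were control cells, cells given 750 µM butyrate for 48 h and cells given 750 µM pentanoate for 48 h, with 3 libraries in each. Both acids are short-chain fatty acids, pentanoate with the longer chain. The sources used here do not say what control cells were given. Separate cultures are not stated for the libraries of a group, so the p-values measure the spread between these samples, which may be technical.

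A C2H2 zinc finger is a short protein fold in which paired cysteines and histidines hold a zinc ion, and arrays of such fingers read DNA bases. Many of these proteins also carry a KRAB box at the other end, which binds the corepressor Trim28 (KAP1) and, through it, Setdb1 and heterochromatin proteins that silence transposable elements and imprinted genes. Genes with a KRAB box are young, have multiplied by tandem duplication and lie in clusters, while those without it include older regulators of transcription, RNA decay and translation. Butyrate is known as an inhibitor of histone deacetylases, the class of enzymes that several of these corepressor complexes carry.

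The Zfp genes were divided by the KRAB A box, found in the coding sequence translated from GENCODE transcripts as at least 11 of 16 conserved positions. A total of 142 genes had the box, with 12 to 16 positions matched, and 123 did not, with 3 to 10 matched. The box is shown for 4 of its textbook carriers. Zfp568 silences a placental Igf2 transcript in mouse and was the only KRAB gene called in any of the 3 comparisons by the test with all 9 libraries and no block, Zfp57 and Zfp445 protect imprinted methylation, and Zfp809 silences murine leukaemia proviruses. The 111 coding bases lie at chr7:29997756-29997866 (+) for Zfp568, chr17:37006074-37006184 (+) for Zfp57, chr9:22235026-22235136 (+) for Zfp809 and chr9:122856709-122856819 (-) for Zfp445 in GRCm38, each in a single exon, and capitals mark the codons of matched positions.
Zfp568: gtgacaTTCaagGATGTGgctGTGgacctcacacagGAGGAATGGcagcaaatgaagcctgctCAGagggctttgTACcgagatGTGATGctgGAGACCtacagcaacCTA
Zfp57: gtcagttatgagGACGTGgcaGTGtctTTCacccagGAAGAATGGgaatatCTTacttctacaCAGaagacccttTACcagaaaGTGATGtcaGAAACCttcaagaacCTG
Zfp809: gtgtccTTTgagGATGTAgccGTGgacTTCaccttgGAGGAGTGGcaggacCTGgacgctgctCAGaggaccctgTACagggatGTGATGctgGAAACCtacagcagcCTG
Zfp445: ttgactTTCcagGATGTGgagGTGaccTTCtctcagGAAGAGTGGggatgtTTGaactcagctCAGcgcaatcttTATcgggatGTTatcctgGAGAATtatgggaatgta
The sequences matched 14 of the 16 positions in Zfp568, 15 in Zfp57, 16 in Zfp809 and 14 in Zfp445. Base by base, Zfp568 and Zfp809 were the most alike of the 6 pairs with 86 of 111 identical (77.5%), and Zfp57 and Zfp445 the least with 64 (57.7%).

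Such proteins bind DNA with their fingers, shown for a gene that fell with butyrate and a gene that rose. The finger of Zfp568 lies at chr7:30022724-30022786 (+) and that of Zfp217 at chr2:170120166-170120231 (-), both GRCm38, and capitals mark the codons of the 2 cysteines and 2 histidines.
Zfp568 finger: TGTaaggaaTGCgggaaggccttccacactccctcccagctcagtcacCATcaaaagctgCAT
Zfp217 finger: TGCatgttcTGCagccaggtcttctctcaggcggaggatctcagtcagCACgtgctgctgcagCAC
The spacing of the capitals is the pattern by which fingers were counted. Genes with a KRAB box had a median of 12 fingers and those without had 8. The longest array was the 36 fingers of Zfp142, and 5 genes had none by this count, namely Zfp330, Zfp36, Zfp365, Zfp503 and Zfp703. The authors' table assigns 232 of the 265 genes to the C2H2 family, 2 (Zfp131 and Zfp651) to the ZBTB family and 31 to none.

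Of the 265 genes, 159 lay within 200 kb of another Zfp gene, among them 117 of the 142 with a KRAB box and 42 of the 123 without. Chromosome 7 held 67 of them, chromosome 17 held 36, and chromosomes 13 and 8 held 19 each. The longest run, 19 Zfp genes on chromosome 13 from 67038596 to 67827002, had only 9 above the level limit, all with a KRAB box. A run of 18 on chromosome 17 from 21383748 to 22456689 had 15 above it, again all with the box, and a run of 15 on chromosome 7 from 29768552 to 30169750, which holds Zfp568, had 13. Such neighbours are often near copies. In 31 genes, 21 of them with a KRAB box, at least 20% of the 50-base stretches of the longest transcript also occur in a transcript of another gene, so their counts are uncertain, and 95 genes shared no stretch. The strand setting of the counting is not known here, so antisense and overlapping genes cannot be separated either.

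Totals were 15829262 to 19305981 counts per library, and the Zfp genes together took 0.608% to 0.676% of them. Myoblast markers fitted the label, with 5 of 5 over 2 CPM and a summed level of 845 to 1341 CPM in control, 1063 to 1329 in butyrate and 1117 to 1436 in pentanoate libraries. Among them Myod1 fell with butyrate (log2 change −0.89, edgeR adjusted p 0.00828) and Myf5 rose (0.57, adjusted p 0.0279). The 3 blood markers summed to 12.2 to 15.7 CPM, nearly all of it Cd14. The 3 neuron markers summed to 2.84 to 3.93 CPM in control, 5.54 to 7.98 in butyrate and 3.94 to 5.28 in pentanoate libraries, nearly all of it Tubb3, which rose with butyrate (log2 change 0.94, edgeR adjusted p 0.016), while Rbfox3 had no count. The 3 adipocyte markers summed to 0.1105 to 0.1895 CPM in control and 0.655 to 1.84 in butyrate libraries, and Fabp4 rose (log2 change 2.71, edgeR adjusted p 0.0184). The epithelial markers reached 2.32 CPM, with no count of Epcam, and the endothelial markers 0.368 CPM, with none of Kdr. The part of these shifts in the results below was not tested. Control library 3 stood apart from the others. Mitochondrial genes took 3.95% of its counts and 1.80% to 2.32% in the other 8 libraries. Across 13945 genes its deviation from the gene mean fell with GC content, with a Spearman rho of −0.62, and the results against control are therefore given with and without it.

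The median level of the Zfp genes was 13.5 CPM against 40.0 CPM over the 10936 protein-coding genes with at least 2 CPM. Genes with a KRAB box had a median of 8.72 CPM and those without 25.7 CPM, and per kilobase of gene model the medians were 2.02 and 4.96 CPM. All 9 genes over 100 CPM lacked the box. The highest was Zfp106, an RNA-binding protein needed to maintain motor axons and muscle in mouse, with a mean of 221 CPM. It was followed by Zfp91, a ubiquitin ligase of NF-kappaB signalling, with 203 CPM, and by the spindle protein Zfp207 with 185 CPM, Zfp706 with 183 CPM and Zfp503 with 176 CPM. Per kilobase Zfp503, a corepressor of the same small family as Zfp703, was the highest with 41.6 CPM. The highest KRAB gene was Zfp445 with 83.4 CPM, or 11.2 CPM per kilobase.

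Several genes of textbook role were named for their level. Zfp143, which drives small nuclear RNA genes, had 18.6, 16.3 and 17.9 CPM in control, 18.04, 18.6 and 18.5 in butyrate and 15.7, 17.04 and 17.9 in pentanoate libraries. Zfp410, an activator of Chd4, lay between 33.5 and 38.9 CPM in all 9 libraries. The groups overlapped for both. Zfp516, known from brown fat in mouse, lay between 108 and 149 CPM and Zfp598, the ubiquitin ligase that senses collided ribosomes, between 64.9 and 94.3 CPM. Zfp932, which acts on retroelements, had a mean of 9.52 CPM, with 45.2% of its stretches shared. Below the level limit lay Zfp521 with 1.68 CPM, Zfp593 with 0.376 CPM and Zfp708 with a single count in all libraries together, and Zfp42 (Rex1), a marker of pluripotent cells, had no count.

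The first comparison was butyrate against control. Of the 265 genes, 8 passed an adjusted p under 0.05 in edgeR's quasi-likelihood test, or 3.02%, beside 11.4% of all 14066 genes tested and 11.8% of the protein-coding genes with at least 2 CPM. Zfp651, Zfp358, Zfp568 and Zfp827 fell and Zfp106, Zfp217, Zfp703 and Zfp365 rose. Over all genes the share was 6.43% for rises and 4.95% for falls. A total of 7 of the 123 genes without a KRAB box were called (5.69%) and 1 of the 142 with it (0.704%). The difference between both kinds was not tested, and the KRAB genes were lower and had the larger median standard error of the log2 change, 0.189 against 0.139. The changes were small. Only 7 genes (2.64%) differed more than 1.5-fold and only Zfp423 more than 2-fold, beside 9.40% and 3.72% of the protein-coding genes with at least 2 CPM and 15.04% and 6.73% of all genes. The libraries of the groups did not overlap for 54 genes (20.4%), 11 higher and 43 lower with butyrate. Over all 14066 genes the share was 29.1%, with 1987 higher and 2102 lower. Over the protein-coding genes with at least 2 CPM it was 29.8%, with 1382 higher and 1875 lower.

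**Figure D1:**
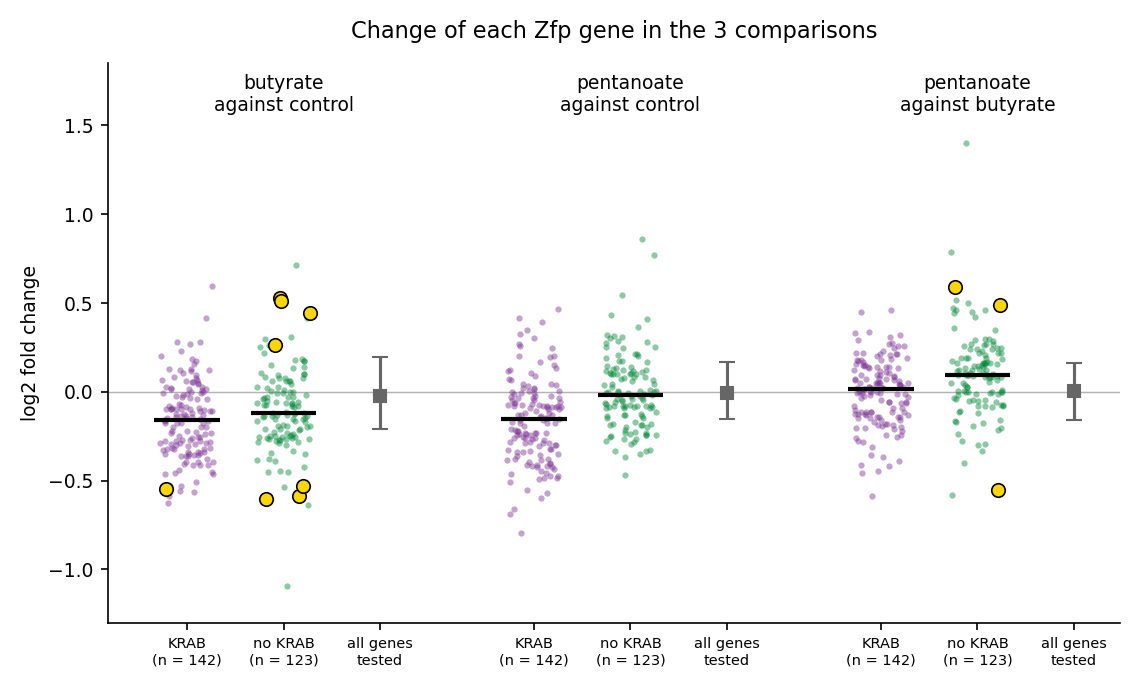
Fitted log2 fold change of each Zfp gene in the 3 comparisons, split by the KRAB A box (points; bars are medians), with the median and quartiles of all genes tested (grey squares and whiskers). Yellow points passed an adjusted p under 0.05: 8 with butyrate against control, 0 with pentanoate against control and 3 between the acids.

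Among the falls, Zfp827, whose human counterpart brings the NuRD complex to telomeres, had 44.8, 44.5 and 44.5 CPM in the control libraries, 31.7, 28.1 and 32.8 with butyrate and 44.9, 43.6 and 41.7 with pentanoate. All 3 butyrate libraries lay below the other 6. The log2 change against control was −0.53 (SE 0.09, edgeR adjusted p 0.0045), and it kept its call in all 20 alternatives of fit, filter or libraries tried. Zfp651, a gene of the BTB class in the authors' annotation, had 41.1, 40.6 and 30.5 CPM in control, 24.1, 24.6 and 25.2 with butyrate and 36.6, 38.9 and 35.7 with pentanoate. The butyrate libraries were again the lowest 3, and their own spread was 0.517 CPM (SD, n = 3) around a mean of 24.7. The log2 change was −0.60 (SE 0.12, edgeR adjusted p 0.00966). Without butyrate library 2 the adjusted p was 0.0503.

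Zfp568, the KRAB gene whose box is printed above, had 47.9, 43.0 and 44.6 CPM in control, 36.01, 28.6 and 28.01 with butyrate and 47.1, 44.5 and 35.8 with pentanoate. Butyrate and control libraries did not overlap, while pentanoate library 3 lay just under the highest butyrate library. The log2 change with butyrate was −0.55 (SE 0.13, edgeR adjusted p 0.023). Zfp358 had 39.6, 33.5 and 44.0 CPM in control, 29.02, 24.1 and 25.0 with butyrate and 37.9, 29.3 and 33.0 with pentanoate, so that the butyrate libraries were the lowest 3 and those with pentanoate overlapped the control. Its log2 change with butyrate was −0.58 (SE 0.14, edgeR adjusted p 0.0196). Both genes lost the call without control library 1, butyrate library 2 or butyrate library 3, with adjusted p up to 0.11 for Zfp568 and 0.0934 for Zfp358.

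Among the rises, Zfp365, which binds the scaffold protein Disc1 and sits at the centrosome, had 45.8, 47.6 and 53.5 CPM in control, 65.3, 73.8 and 72.4 with butyrate and 52.4, 61.3 and 60.9 with pentanoate. The butyrate libraries were the highest 3, and the pentanoate libraries overlapped the control. The log2 change was 0.53 (SE 0.10, edgeR adjusted p 0.00858), called in all 20 alternatives. Zfp703, a corepressor amplified in human breast cancer, had 35.99, 39.8 and 32.7 CPM in control, 46.0, 57.3 and 51.2 with butyrate and 32.5, 38.8 and 33.95 with pentanoate. The butyrate libraries stood above the other 6, and the log2 change was 0.51 (SE 0.12, edgeR adjusted p 0.0196). Of its stretches 11.7% are shared with other genes, and the call was lost without control library 1, butyrate library 2 or butyrate library 3, with adjusted p up to 0.0964.

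Zfp217, a partner of the CtBP and Lsd1 corepressors, had 39.9, 37.5 and 29.6 CPM in control, 47.9, 52.4 and 45.3 with butyrate and 45.2, 48.5 and 44.2 with pentanoate. All 6 libraries of treated cells lay above all 3 controls, with a log2 change of 0.44 for butyrate (SE 0.12, edgeR adjusted p 0.0369). Zfp106, the most abundant of the genes, had 207, 203 and 215 CPM in control, 248, 250 and 253 with butyrate and 202, 214 and 194 with pentanoate. The butyrate libraries were the highest 3 by a small margin, a log2 change of 0.26 (SE 0.08, edgeR adjusted p 0.0486). Both calls were close to the limit. Zfp217 lost it in 7 of 20 alternatives, among them the omission of any butyrate or pentanoate library, with adjusted p up to 0.152. Zfp106 lost it in 10, among them the omission of control 1 or 2 or of any butyrate or pentanoate library, with adjusted p up to 0.176, and 25.2% of the stretches of Zfp106 are shared with other genes. In RNA from whole cultures, fewer cells with a transcript and less of it in each cell cannot be told apart.

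**Figure D2:**
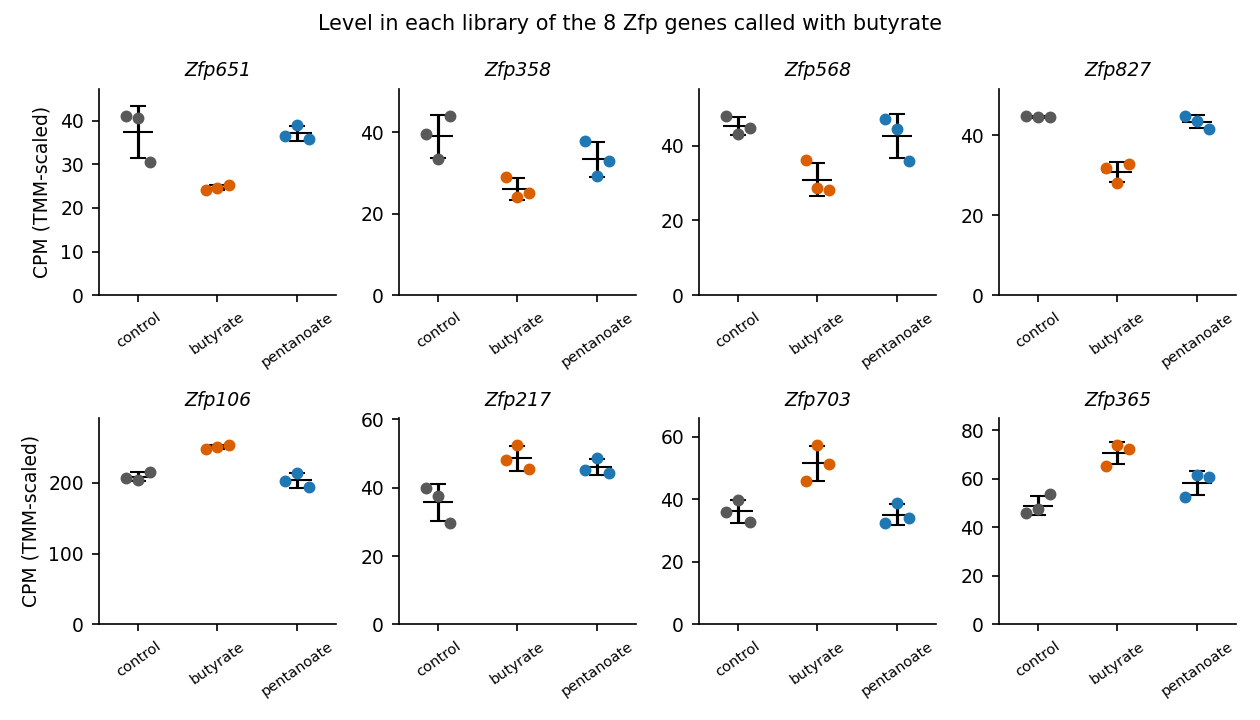
Level in CPM (TMM-scaled library sizes, axes from 0) of the 8 Zfp genes called with butyrate, in each of the 9 libraries; points are libraries and bars the mean and SD of 3. The upper row shows the 4 genes that fell and the lower row the 4 that rose, and for each the control and butyrate points do not overlap.

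The called genes are at scattered loci. In GRCm38, Zfp651 (ENSMUSG00000013419) lies on chromosome 9 at 121759330 to 121771742 (+), Zfp827 (ENSMUSG00000071064) on chromosome 8 at 79028437 to 79193766 (+), and Zfp358 (ENSMUSG00000047264) on chromosome 8 at 3493138 to 3497208 (+). Zfp568 (ENSMUSG00000074221) lies on chromosome 7 at 29983955 to 30028282 (+) and was the only called gene within 200 kb of another Zfp gene. Zfp106 (ENSMUSG00000027288) and Zfp217 (ENSMUSG00000052056) are both on chromosome 2, at 120506820 to 120563843 (-) and 170108643 to 170148103 (-). Zfp703 (ENSMUSG00000085795) lies on chromosome 8 at 26977325 to 26981461 (+) and Zfp365 (ENSMUSG00000037855) on chromosome 10 at 67886103 to 67912662 (-). In clusters 1 of 159 genes was called with butyrate (0.629%), and among lone genes 7 of 106 (6.60%), beside 11.4% of all genes. The difference was not tested. Clustered genes had a lower median level, 9.95 against 25.9 CPM, and a larger median standard error, 0.182 against 0.145. Of the 159, 117 have a KRAB box, so the split by position overlaps the split by the box.

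Promoters were read from RefSeq (GRCm38.p6) as 250 bases before to 50 after the start of transcription, and 220 of the 265 genes had an entry. Their median GC content was 55.2% and their median number of CpG dinucleotides 16, beside 61.7% and 22 for the 8664 promoters of protein-coding genes with at least 2 CPM. On either strand, 45.5% held the GC box core GGGCGG, beside 67.6% of those 8664, and 48.6% held CCAAT, beside 39.5%. The ETS site CCGGAAG was in 20.5% beside 19.6% and the YY1 site AAGATGGCG in 4.09% beside 3.59%. These are matches of letters, and matches of different motifs may overlap. The promoters of the fall and the rise that kept their call in all alternatives are shown, Zfp827 at chr8:79028187-79028486 (+) and Zfp365 at chr10:67912613-67912912 (-), with GGGCGG matches on either strand in capitals.
Zfp827 promoter: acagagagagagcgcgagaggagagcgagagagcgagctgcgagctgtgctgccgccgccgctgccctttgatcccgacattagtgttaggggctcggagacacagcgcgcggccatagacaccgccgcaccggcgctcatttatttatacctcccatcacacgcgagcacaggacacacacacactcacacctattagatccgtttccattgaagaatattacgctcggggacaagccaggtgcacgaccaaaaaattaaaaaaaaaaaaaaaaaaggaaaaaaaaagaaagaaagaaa
Zfp365 promoter: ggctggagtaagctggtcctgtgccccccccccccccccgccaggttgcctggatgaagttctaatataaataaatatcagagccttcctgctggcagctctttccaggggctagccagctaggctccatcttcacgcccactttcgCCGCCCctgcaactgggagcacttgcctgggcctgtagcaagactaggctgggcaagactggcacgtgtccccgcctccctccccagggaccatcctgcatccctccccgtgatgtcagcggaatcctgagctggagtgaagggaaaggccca
The Zfp827 window held 23 CpG dinucleotides and no match to the GC box, CCAAT or ETS letters. The Zfp365 window held 1 GGGCGG match, on the reverse strand, and 8 CpG dinucleotides. Over the other called genes with an entry, the number of GGGCGG matches was 4 for Zfp651, 2 for Zfp217, 2 for Zfp358 and 1 for Zfp106.

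Most Zfp genes moved little with butyrate, but more had a negative than a positive fitted change. The change was negative for 196 of the 265 (74.0%), beside 53.2% of all genes and 56.4% of the protein-coding genes with at least 2 CPM. The median was −0.14 on the log2 scale, beside −0.02 over all genes and −0.04 over those protein-coding genes. Part of this went with control library 3. Without it the median was −0.07, beside 0.00 over all genes and −0.02 over the protein-coding genes with at least 2 CPM. The difference lay in the KRAB genes, whose median was −0.16 with all libraries and −0.03 without control 3. The median of the genes without a KRAB box was −0.12 with it and −0.12 without it. With the block the KRAB median was −0.15, and −0.03 on leaving out control 3 as well.

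The libraries show this directly. The KRAB genes were above their own mean by a median of 0.37 on the log2 scale in control library 3, while in the other 8 libraries their median deviation lay between −0.10 and 0.04. Control 3 exceeded the mean of controls 1 and 2 by a median of 0.39 in the KRAB genes, fell short of it by −0.10 in those without the box and differed by 0.02 over all genes. It was the highest of the 3 controls for 73.9% of the KRAB genes, beside 42.9% of all genes. KRAB transcripts were poor in GC, with a median of 41.4% against 49.8% without the box and 49.6% over all genes tested. Within the Zfp genes the deviation of control 3 fell with GC content with a Spearman rho of −0.80, a description over 265 genes that share a library. In the other 8 libraries this rho lay between −0.22 and 0.57. With an offset for GC content in each library the median change with butyrate was −0.06 for KRAB genes and −0.08 for the others. The offset was fitted to the deviations of all libraries, treated ones included. It takes out any difference between groups that goes with GC content, so these medians are no separate test.

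**Figure D3:**
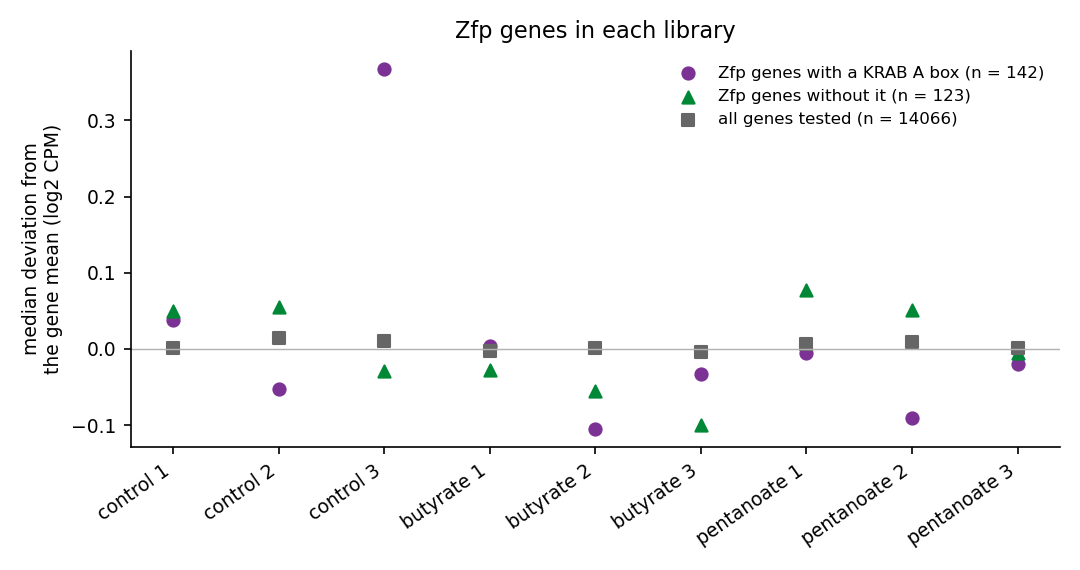
Median deviation from the gene mean (log2 CPM) in each of the 9 libraries, for 142 Zfp genes with a KRAB A box, 123 without it and all 14066 genes tested. The KRAB genes reached 0.37 in control 3 and lay between −0.10 and 0.04 elsewhere.

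The same split appears along GC content. Over the 265 genes the log2 change with butyrate had a Spearman rho with transcript GC content of 0.39 with all libraries and −0.20 without control 3. For pentanoate against control the values were 0.73 and 0.14. With the block and without control 3 they were −0.16 for butyrate and 0.20 for pentanoate. Both comparisons against control share the control libraries, so these are not separate observations. For pentanoate against butyrate the rho was 0.39 with all libraries and 0.39 without control 3, so a dependence on GC content was not limited to that library. Its cause was not tested. Zfp148, a zinc finger repressor without a KRAB box and with a transcript GC content of 39.9%, shows a high value of control 3 on a single gene. It had 83.7, 73.1 and 138 CPM in control, 86.8, 76.3 and 81.3 with butyrate and 87.7, 79.7 and 81.8 with pentanoate, so that a single library lay far above the other 8. Zfp207 and Zfp638 had the same form, with 246 and 107 CPM in control 3 and at most 189 and 78.8 CPM in any other library. Zfp148 and Zfp207 were picked as examples and are not typical of the 123 genes without the box. In the median of those genes, control 3 differed from the mean of controls 1 and 2 by −0.10.

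**Figure D4:**
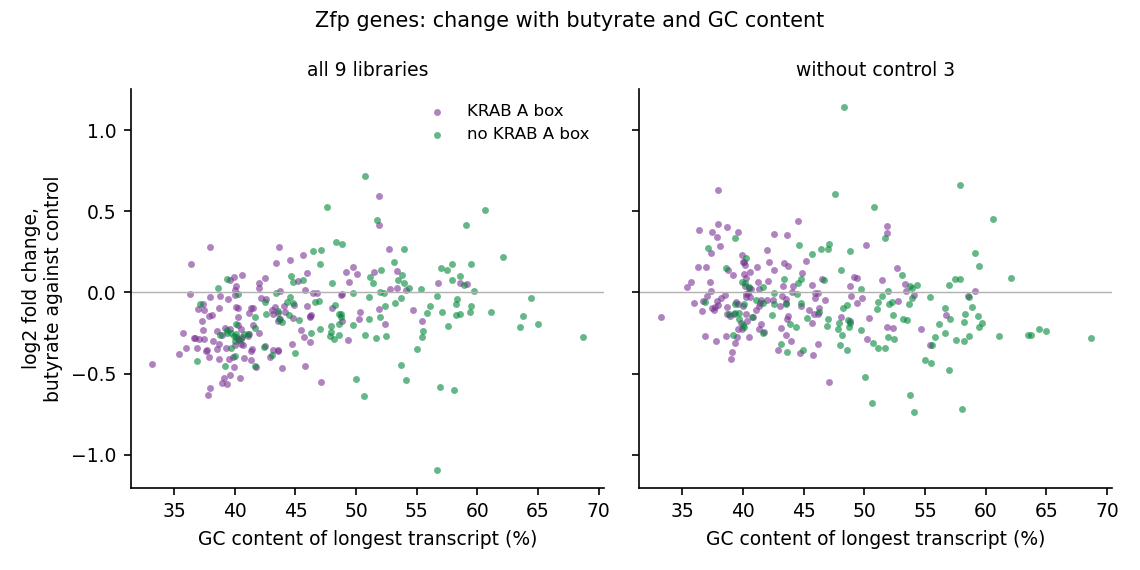
Log2 fold change with butyrate against control (vertical) by GC content of the longest transcript in percent (horizontal) for the 265 Zfp genes, with all 9 libraries (left) and without control 3 (right). The Spearman rho was 0.39 on the left and −0.20 on the right, and the KRAB genes lie mostly at low GC content.

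Same-numbered libraries of the 3 groups moved together, so the test was also run with replicate number as a block term. It called 25 Zfp genes with butyrate, 6 higher and 19 lower, beside 20.7% of all genes. All 8 genes above were among them, and 22 of the 25 lacked a KRAB box. Without control 3 the count was 19, with 5 higher and 14 lower, beside 15.9% of all genes, and the DESeq2 Wald test called 16, with 5 higher and 11 lower, beside 14.5%. Both again held all 8. With the block and without control 3 the count was 45, with 12 higher and 33 lower, all 8 among them and 5 with a KRAB box, beside 33.6% of all genes. The share of the Zfp genes called was 9.43% with the block, 7.17% without control 3, 16.98% with both and 6.04% by DESeq2.

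Some regulators of known role missed the limit without the block and passed with it. Zfp281, which limits Nanog in pluripotent cells, had 55.0, 45.02 and 55.9 CPM in control, 38.5, 39.5 and 41.4 with butyrate and 49.2, 37.5 and 41.8 with pentanoate. The butyrate libraries lay below the control libraries, with a log2 change of −0.38 (SE 0.12, edgeR adjusted p 0.0708, with the block 0.0245). Zfp384, a nuclear matrix protein of bone cells, had a log2 change of −0.27 (SE 0.09, edgeR adjusted p 0.0716, with the block 0.0346), and Zfp91 of −0.26 (SE 0.09, 0.0972 and 0.0363 in the same tests). Zfp36 (tristetraprolin), which speeds the decay of AU-rich messengers, MyoD's among them in satellite cells, had 23.6, 20.6 and 12.96 CPM in control, 16.9, 12.3 and 10.3 with butyrate and 21.9, 18.9 and 15.9 with pentanoate. The groups overlapped, yet within each number the butyrate library was the lowest of the 3. Its log2 change was −0.54 (SE 0.24, edgeR adjusted p 0.186, with the block 0.0129). With the block and without control 3 all 4 passed, at adjusted p of 0.00402 for Zfp281, 0.00191 for Zfp384, 0.0082 for Zfp91 and 3.9e-05 for Zfp36. Without control 3 and with no block, Zfp384 (0.0308) and Zfp36 (0.0288) passed, and Zfp281 (0.111) and Zfp91 (0.152) did not.

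Zfp423, which commits cells to fat in mouse, had the widest spread. It had 1.57, 2.01 and 6.09 CPM in control, 1.06, 0.967 and 2.47 with butyrate and 2.22, 2.81 and 6.89 with pentanoate. Library 3 was the highest in every group, and within each number butyrate was the lowest and pentanoate the highest. The log2 change with butyrate was −1.09 (SE 0.62, edgeR adjusted p 0.299, with the block 0.00902). Without control 3 it was −0.25 (adjusted p 0.827), and with the block and without control 3 it was −0.86 (adjusted p 0.029). A further pair of genes was picked out after their values were seen. Zfp697, a regulator of muscle regeneration in mouse, had a log2 change of 0.71 (SE 0.23, edgeR adjusted p 0.0771, with the block 0.00367), and Zfp532 one of −0.64 (SE 0.19, 0.0522 and 0.00257 in the same tests), with 36.8% of its stretches shared. Zfp809, the retrovirus silencer, had 12.6, 12.2 and 15.5 CPM in control and 13.1, 15.3 and 13.7 with butyrate, a log2 change of 0.07 with a 95% interval from −0.22 to 0.36.

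**Figure D5:**
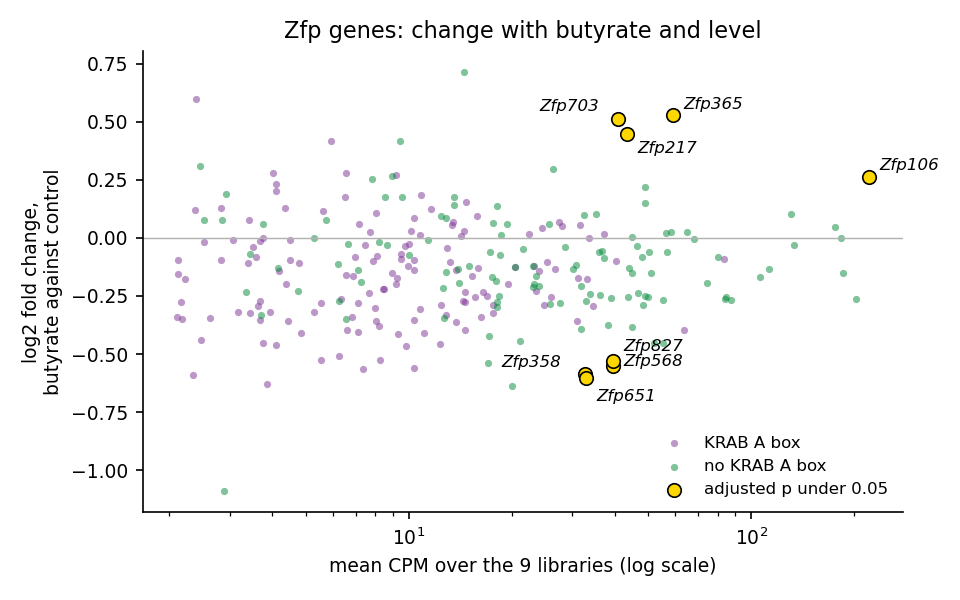
Log2 fold change with butyrate against control (vertical) by mean CPM over the 9 libraries (horizontal, log scale) for the 265 Zfp genes. The 8 genes with an adjusted p under 0.05 are named and have mean levels from 32.7 CPM (Zfp358) to 221 CPM (Zfp106).

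For pentanoate against control no Zfp gene passed the test, beside 0.803% of all genes. At an unadjusted p under 0.05 there were 29, or 10.9%, beside 13.7% of all genes, and the DESeq2 Wald test called 2, Zfp395 and Zfp503, beside 2.57% of all genes. The libraries did not overlap for 41 (15.5%), 15 higher and 26 lower, beside 18.5% of all genes, 1320 higher and 1283 lower. Zfp503 had 162, 172 and 118 CPM in control and 215, 216 and 230 with pentanoate, all 3 above the controls. Its log2 change was 0.55 with a 95% interval from 0.23 to 0.86 (SE 0.14, edgeR adjusted p 0.13). With butyrate it had 169, 131 and 167 CPM, overlapping the controls. Zfp57, the imprint keeper, had 21.9, 22.6 and 15.2 CPM in control, 22.6, 20.7 and 17.2 with butyrate and 30.3, 29.6 and 22.8 with pentanoate. Every pentanoate library lay above all 3 controls, with a log2 change of 0.47 (SE 0.17, edgeR adjusted p 0.28, with the block 0.0258), which made it the only Zfp gene called with the block, beside 3.65% of all genes. Without control 3 its adjusted p was 0.37 with no block and 0.00179 with it. With the block and without control 3 there were 11 calls (4.15%), all higher, Zfp57, Zfp503 and Zfp217 among them, beside 12.2% of all genes.

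Zfp217, which rose with butyrate, had a log2 change of 0.37 with pentanoate and a 95% interval from 0.10 to 0.63 (SE 0.12, edgeR adjusted p 0.223). The comparisons with butyrate and with pentanoate share their controls. Without control 3 the only call was Zfp467, a gene known to favour fat over bone in mouse, with an adjusted p of 0.0261 in edgeR's test against 0.315 with all libraries, beside 0.966% of all genes. It had 3.38, 2.57 and 7.45 CPM in control and 7.40, 6.23 and 10.6 with pentanoate. The median change of all 265 genes was −0.08, beside −0.01 over all genes. It was −0.15 for the KRAB genes and −0.01 for these without control 3, while the median of the genes without the box was −0.02 in both. With the block the KRAB median was −0.14, and −0.03 on leaving out control 3 as well. On chromosome 17, where 30 of the 36 Zfp genes have a KRAB box, the median was −0.21 with all libraries and −0.07 without control 3.

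The third comparison set pentanoate against butyrate, both at 750 µM and 48 h, and the control libraries enter it only through the scaling, the filter and the shared estimate of the spread. It called 3 Zfp genes (1.13%), beside 3.42% of all genes. The libraries did not overlap for 69 (26.0%), 48 higher and 21 lower with pentanoate, beside 30.8% of all genes, 2209 higher and 2119 lower. The median difference was 0.05 on the log2 scale, beside 0.00 over all genes. It was 0.02 for the KRAB genes and 0.10 for those without the box, and also 0.02 and 0.10 without control 3. With the GC offset these were 0.04 and 0.07, and the difference between both kinds was not tested. All 3 called genes are among those called with butyrate, and for each the control and pentanoate libraries overlapped. Zfp651 was higher with pentanoate by 0.59 on the log2 scale, with a 95% interval from 0.32 to 0.85 (SE 0.12, edgeR adjusted p 0.0266), and Zfp827 by 0.49, from 0.29 to 0.69 (SE 0.09, edgeR adjusted p 0.0178). Zfp703 was lower, with a log2 difference of −0.55 and an interval from −0.82 to −0.29 (SE 0.12, edgeR adjusted p 0.033). Against control, the 95% interval of the log2 change with pentanoate was −0.28 to 0.25 for Zfp651, −0.24 to 0.16 for Zfp827 and −0.31 to 0.22 for Zfp703. Zfp827 and Zfp651 lost the call between the acids without any butyrate or pentanoate library, and Zfp703 without butyrate 2 or 3 or any pentanoate library, with adjusted p up to 0.148.

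The other 5 genes called with butyrate did not pass between the acids. The difference was 0.46 for Zfp568 (95% interval 0.17 to 0.75, edgeR adjusted p 0.0876), 0.36 for Zfp358 (0.06 to 0.66, adjusted p 0.193), −0.30 for Zfp106 (−0.47 to −0.13, adjusted p 0.0575) and −0.28 for Zfp365 (−0.50 to −0.05, adjusted p 0.182). For Zfp217 the interval of the difference ran from −0.34 to 0.18 (adjusted p 0.806). Zfp503 was 0.50 higher with pentanoate (95% interval 0.18 to 0.82, edgeR adjusted p 0.0881), and the 3 pentanoate libraries lay above the other 6. With the block, 14 Zfp genes were called, 10 higher with pentanoate and 4 lower, beside 10.5% of all genes. Without control 3 there were 16, 13 higher and 3 lower, beside 10.2%, and the DESeq2 Wald test called 7, 5 higher and 2 lower, beside 6.76%. With the block and without control 3 there were 49 (18.5%), 37 higher and 12 lower, beside 32.2%. The 3 calls above were among them in each of these fits.

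The proteins that KRAB boxes work through were examined as a list of 40 symbols, of which 38 were found and tested. With butyrate 3 were called (7.89%, beside 11.4% of all genes). Chd3, the motor of a NuRD complex, had 511, 525 and 345 CPM in control, 329, 294 and 284 with butyrate and 426, 464 and 421 with pentanoate, and fell by 0.61 on the log2 scale (SE 0.14, edgeR adjusted p 0.0216). The butyrate libraries were the lowest 3, and control 3 was the lowest control. The call was lost without control 1 or 2 or butyrate 2 or 3. Morc2a, which compacts chromatin with the HUSH complex, fell from 95.5 ± 1.72 to 79.0 ± 1.96 CPM (SD, n = 3, log2 change −0.27, edgeR adjusted p 0.0367), a call lost in 12 of 20 alternatives, among them the omission of control 1 or 2 or of any butyrate or pentanoate library. Hdac1, a histone deacetylase of NuRD, rose from 76.6 ± 5.07 to 104 ± 9.44 CPM (SD, n = 3, log2 change 0.43, edgeR adjusted p 0.015). Omission of control 1 or of butyrate 2 ended that call.

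Trim28 itself had 387, 439 and 436 CPM in control, 349, 381 and 317 with butyrate and 389, 434 and 440 with pentanoate. The butyrate libraries lay below the controls, but the test gave a log2 change of −0.27 (SE 0.10, edgeR adjusted p 0.108). It passed in 2 of 20 alternatives, with the block (0.0416) and with the block and without control 3 (0.00508), and not with the block and GC offset (0.0578). Setdb1, the methyltransferase that Trim28 brings in, had a log2 change of −0.11 (SE 0.08, edgeR adjusted p 0.423). No gene of the list was called with pentanoate against control, where 6 (15.8%) had an unadjusted p under 0.05, beside 13.7% of all genes, or between the acids, where 5 (13.2%) did, beside 17.5%. Without control 3, 4 of the 38 were called with butyrate (10.5%), beside 15.9% of all genes. In that fit 0 were called with pentanoate against control, beside 0.966%, and 3 between the acids (7.89%), beside 10.2%.

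Other zinc finger families, each taken at 2 CPM or more, serve as a frame. With butyrate 3 of 36 Zbtb genes (8.33%) were called, all lower, and 1 of 11 Klf genes (9.09%), which was higher. None of the 16 Zscan and Zkscan genes or the 18 Zc3h genes was called, beside 11.4% of all genes. The median log2 change was −0.12 for Zbtb, −0.07 for Zscan and Zkscan, 0.02 for Klf and −0.11 for Zc3h genes. It was −0.14 in the Zfp genes and −0.02 over all genes. Without control 3 the median was −0.09 for Zbtb, −0.04 for Zscan and Zkscan, −0.04 for Klf and −0.05 for Zc3h genes. In that fit it was −0.07 in the Zfp genes and 0.00 over all genes, so the order of the families depended on control 3. At an unadjusted p under 0.05 with all libraries the counts in that order were 11, 2, 3 and 1, beside 39 of the 265 Zfp genes (14.7%) and 26.0% of all genes. The families were not tested against each other.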

How the data were processed

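The data are RNA-seq counts of 9 libraries in 3 groups. The authors deposited raw counts per gene, which were used as deposited, and the table's own header gives symbols, identifiers and GRCm38 coordinates. Per the submitters' processing notes the build was GRCm38 (mm10), and RNA and libraries were made with Trizol and a SMARTER kit per the labels' protocols. No source used here gives the aligner, the counter or the strand setting. The filter filterByExpr of edgeR left 14066 genes, TMM scaled the libraries, and edgeR's quasi-likelihood test (robust) took all 9 libraries with the group as sole factor (6 residual degrees of freedom) and Benjamini-Hochberg adjustment over all genes. The common biological coefficient of variation was 14.4%. A standard error is the log2 change over the square root of F, and it and the intervals are approximate. CPM per library uses TMM-scaled totals. Counting error and the 3 libraries per group limit precision. Software was edgeR 4.0.16, DESeq2 1.42.0 and limma 3.58.1 in R 4.3.3, with pandas 2.3.3 and matplotlib 3.10.9 in Python 3.11.15.

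The members and lists were chosen with earlier results of these data known. Named genes are mainly called members without overlap of libraries, the 5 highest, those beside the level limit and a list of textbook genes, of which part is printed. Outside these, Zfp395 and Zfp467 were named because an alternative fit called them, and Zfp142 and Zfp330 for their count of fingers. Zfp697 and Zfp532 were picked out after their values were seen. KRAB boxes and fingers come from GENCODE M21 coding sequences, a step added after the files were seen because a protein table was not used here. All 265 genes had one. Fingers were counted as 2 cysteines 2 to 4 residues apart, 12 residues, and 2 histidines 3 to 6 residues apart. Replicate numbers come from the labels, and what libraries of equal number share is not stated in the sources used here. Over genes the 9 pairs of equal number had correlated deviations within groups (r = 0.20 to 0.41, the 18 others −0.33 to 0.01). Deviations were taken from the group mean, so the values of the 18 are not independent of those of the 9. Only the main edgeR fit was run on simulated counts, drawn with a common spread and without paired or deviating libraries. The other fits were not tested in this way. Alternatives were other scalings and filters, DESeq2, the replicate block, GC offsets, the 2 groups alone, other level limits and the omission of each library.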

Additional observations from a re-analysis of the deposited data

How the results depend on the processing

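No median of the Zfp genes and no fitted change of a named gene followed here changed its sign under the alternatives run. The Spearman rho of the butyrate change with GC content did, from 0.39 with all libraries to −0.20 without control 3. For butyrate against control, 4 higher and 4 lower calls became, for the lower calls, 11 by the DESeq2 Wald test, 7 with no low-count filter, 19 with the replicate block, 9 with the GC offset and 26 with the replicate block and GC offset together. The higher calls became 2 with the 2 groups alone and 9 with the replicate block and GC offset. With the replicate block without control 3 (chosen after the data were seen) there were 12 higher and 33 lower calls, and the median was −0.060. Leaving out a library gave 1 to 5 higher and 1 to 16 lower calls, the most lower calls (16) without control 2 and 14 without control 3. For pentanoate against control, 0 higher calls became 2 by DESeq2, 1 with no filter, 1 with the replicate block, 5 with the replicate block and GC offset and 11 with the block without control 3, and 0 to 1 on leaving out a library. Its lower calls were 0 throughout, and its median became −0.0077 with the replicate block and GC offset. Between the acids, 2 higher and 1 lower calls became 5 and 2 by DESeq2, 10 and 4 with the replicate block, 10 and 3 with the 2 groups alone, 19 and 6 with the replicate block and GC offset, and 37 and 12 with the block without control 3. The higher calls became 5 with no filter, and the lower calls 2 with upper-quartile scaling, library totals or the GC offset. Leaving out a library gave 0 to 13 higher and 0 to 3 lower calls. The causes were not tested. With butyrate the share of all genes called rose too, from 11.4% to 20.7% with the block and 33.6% with the block and without control 3. For the other scalings and filters, the GC offsets, the 2 groups alone and the omission of libraries other than control 3, that share is not given here. Their counts are therefore not results about the Zfp genes. Medians on leaving out a library ranged from −0.17 to −0.07, −0.12 to −0.02 and 0.02 to 0.07. Over named genes and alternatives, 602 values kept their side of the limit, 93 passed it and 63 lost it.

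Leaving out the 31 genes with shared stretches gave 3 higher and 4 lower calls with butyrate. The planned check on protein identity was not run. Depth limits the KRAB genes most, of which 41 of 142 had under 5 CPM.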
